A study of Mus musculus with 32 samples.

Results

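Microglia sorted from brains carrying GL-261 tumours were compared with microglia sorted from brains without a tumour, across all genes of the deposited table. The members were chosen by population label and made up 16 of the 32 libraries of the series, 8 of tumour microglia and 8 of normal microglia. The other 16 libraries, 8 each of tumour differentiated and tumour undifferentiated macrophages, entered the model only to share its estimate of spread, and were set beside the microglia once at the end. Normal microglia were labelled Nil, with no graft, and came from C57BL/6J mice, called WT here (4 libraries, experiment 1), or from mice of the strain Pep3/CD45.1, called Pep3 here (4 libraries, experiment 2). Tumour microglia came from chimeric mice implanted intracranially with 50000 GL-261 cells, a mouse glioma line grown in immunocompetent hosts. Of these, 4 libraries were labelled PEP-3 into WT (WT recipients, experiment 4) and 4 were labelled WT into PEP-3 (Pep3 recipients, experiment 3). Tumour, grafting and experiment therefore changed together, and their parts in any difference below cannot be told apart. The macrophage libraries carried the same graft labels, with WT recipients in experiment 3 and Pep3 recipients in experiment 4. No drug treatment was given. The age and sex of the mice, the method of making the chimeras and the sorting gates are not given in the sources used here. Nothing in the labels says that libraries came from separate animals, so the p-values speak only of the spread among these libraries, which may be partly technical.

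Microglia are macrophages that reside in the brain tissue from early development. In the healthy brain they express a set of homeostatic genes, such as Tmem119, P2ry12 and Fcrls, that depends on transforming growth factor beta. In tumours, infection and degeneration they are known to raise interferon-induced, antigen-presenting, complement, lipid-handling and cell division genes.

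The deposited values were signed scores that ran from -6.50 to 6.92, with a mean of 0 for each gene, on a scale that the sources used here do not state. Only differences between groups are therefore given, in units of that scale and with ± 1 standard error of the fit, and no fold changes or levels. Sequencing depth is unknown. The scores carried no variation in 11 of the 32 sample directions, and these took unequal shares from the libraries. Normal microglia libraries 10, 18, 26 and 1 kept 8.60, 23.9, 22.8 and 33.1% of their own variation and tumour microglia library 27 kept 38.96%, while the other 11 libraries kept over 50%. In all, normal microglia kept 4.04 library equivalents of 8 and tumour microglia 6.32. The libraries that kept little are not independent measurements, so the ranges given for each group carry less information in normal than in tumour microglia. Markers of other cell types are given near the end.

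At an adjusted p below 0.05, 820 of 17586 genes (4.66%) were called higher and 2116 (12%) were called lower in tumour microglia. Over the whole table the differences had a median of -0.25. Subtracting the median of each library from its scores moved every difference up by this amount and changed the split to 1358 genes higher (7.72%) and 1336 lower (7.6%), so the larger number of lower calls rests on the zero of the scale. The calls also rested on single libraries. Without normal library 1, 89 genes were called higher and 82 lower. Counts fell by over 1.5 times as well without normal library 10 (267 higher, 519 lower), normal library 18 (326 and 349), normal library 26 (357 and 1128) and tumour library 27 (318 and 424). A set of 52 higher genes (0.296%) and 47 lower genes (0.267%) was called in each of the 16 fits that left out 1 library. When all 9 libraries of the series that kept under 50%, 4 of them macrophage libraries, were left out and the terms for the missing directions were dropped, 47 of these 52 higher genes were still called, against 3 of the 47 lower genes. In that reduced fit all 52 stayed above 0, with a median difference of 2.88, and all 47 stayed below 0, with a median of -1.34 against -1.92 in the full fit. With those 9 libraries left out and the terms kept, limma called no gene in either direction, and 1866 genes had an unadjusted p below 0.05.

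**Figure D1:**
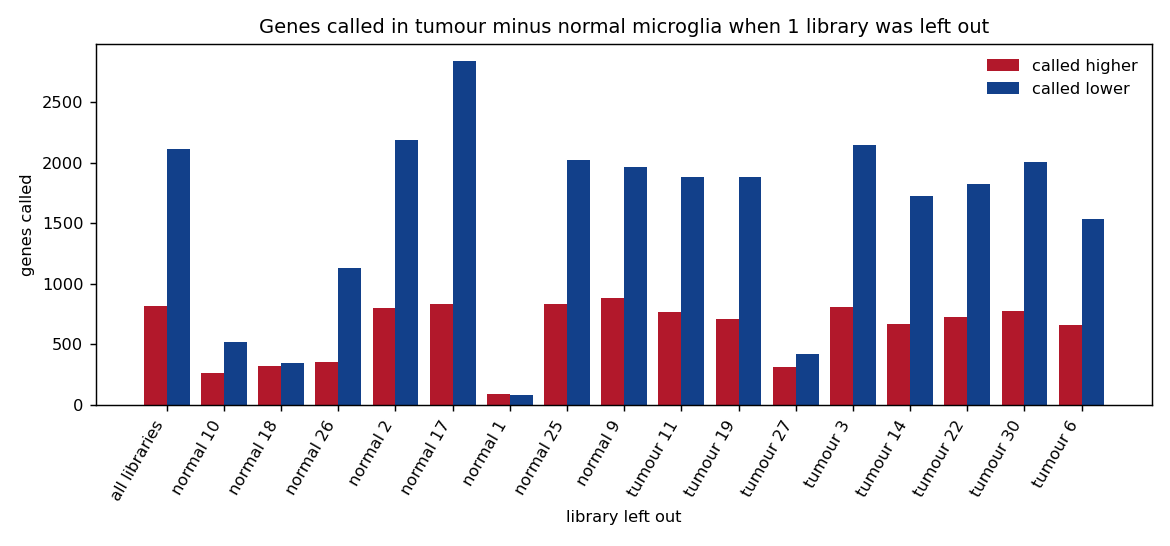
Number of genes called higher (red) and lower (blue) in tumour minus normal microglia at an adjusted p below 0.05, with all libraries and with 1 named library left out (x axis); the y axis is the number of genes. The counts are 820 and 2116 with all libraries and 89 and 82 without normal library 1.

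Of the 5 marker genes of the contrast, 4 rose and 1 fell. C4a, a complement component C4 gene, scored between -3.19 and -1.09 in the normal libraries (median -1.70) and between 0.73 and 3.30 in the tumour libraries (median 2.04). No normal library reached the lowest tumour library. The fitted difference was 4.12 ± 0.37. C4a and its neighbour C4b are near-identical copies, so reads may have been shared between them, and C4b itself rose by 2.59 ± 0.48, a call that was lost without normal library 10 (2.19).

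Cd300lf, an immunoglobulin-like receptor of myeloid cells with inhibitory signalling motifs, scored -3.85 to -1.81 in normal microglia (median -2.82) and -0.22 to 1.05 in tumour microglia (median 0.86). The groups did not overlap, and the difference was 3.66 ± 0.33. Oas2, an antiviral oligoadenylate synthetase, rose by 3.66 ± 0.35, and Isg15, a ubiquitin-like protein induced by interferon, rose by 3.36 ± 0.42. In the normal libraries Isg15 lay between -3.24 and -1.60, and in the tumour libraries between -1.03 and 2.04. These 4 genes were called in each leave-one-out fit.

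Tmem119, a surface protein of homeostatic microglia, scored 1.44 to 2.73 in normal libraries (median 2.03) and 0.62 to 1.40 in tumour libraries (median 0.86), again without overlap. It fell by 1.08 on this scale, with a standard error of 0.29 and an adjusted p of 0.014. The call was lost without normal library 10 (-0.60), 18 (-0.93) or 1 (-1.10) or tumour library 27 (-0.96), and with library medians subtracted (-0.83, adjusted p = 0.053). Lack of overlap was found for 177 genes on the higher side (1.01%) and 134 on the lower side (0.762%).

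Interferon-stimulated response elements are short promoter sequences, bound by interferon regulatory factors, with the core GAAANNGAAA. RefSeq promoter windows of build GRCm38.p6, from 250 bases before to 50 bases after each gene's start, were matched by symbol for 10913 of the 17586 genes. The core was found on either strand, overlaps allowed, in 3.28% of these windows (358). It was found in 41 of 532 windows of genes called higher (7.71%), 33 of 1262 of genes called lower (2.61%) and 9 of 34 of the higher genes called in each leave-one-out fit (26.5%). These 9 were Cxcl10, Fcgr4, Gbp2, Gbp3, Ifit3, Ifitm3, Isg15, Oas1a and Tgtp2. A match is a description of the letters and not evidence that a factor binds. The windows of Isg15, of the antibody receptor gene Fcgr4 and of the interferon-inducible GTPase gene Tgtp2 are shown because Fcgr4 is the matching receptor gene outside the usual interferon lists. Each runs 5′ to 3′ on the gene's strand with the matched core in capitals.
Isg15 (chr4:156200769-156201068, minus strand): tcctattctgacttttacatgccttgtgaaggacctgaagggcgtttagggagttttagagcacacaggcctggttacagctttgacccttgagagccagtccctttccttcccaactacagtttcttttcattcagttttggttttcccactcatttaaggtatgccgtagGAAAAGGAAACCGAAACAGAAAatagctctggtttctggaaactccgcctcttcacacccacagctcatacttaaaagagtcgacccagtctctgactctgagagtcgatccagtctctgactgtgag
Fcgr4 (chr1:171018676-171018975, plus strand): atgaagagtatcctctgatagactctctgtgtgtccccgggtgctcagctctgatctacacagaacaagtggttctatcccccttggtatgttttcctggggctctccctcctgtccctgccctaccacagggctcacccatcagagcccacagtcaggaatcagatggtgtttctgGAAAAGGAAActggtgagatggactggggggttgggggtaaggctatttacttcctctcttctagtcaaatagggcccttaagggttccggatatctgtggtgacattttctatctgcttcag
Tgtp2 (chr11:49064163-49064462, minus strand): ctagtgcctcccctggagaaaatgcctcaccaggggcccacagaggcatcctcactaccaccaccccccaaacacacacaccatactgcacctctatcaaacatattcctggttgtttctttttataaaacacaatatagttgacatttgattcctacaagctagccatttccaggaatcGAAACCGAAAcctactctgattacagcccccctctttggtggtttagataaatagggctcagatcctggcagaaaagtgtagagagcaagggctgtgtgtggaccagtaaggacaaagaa
The Isg15 window holds 3 overlapping matches and the other windows 1 each. Tgtp2 rose by 2.84 ± 0.47, and it has a near-identical copy with which reads may have been shared.

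Several of the higher genes that were called in each leave-one-out fit encode surface receptors. Fcgr4, an activating receptor for immunoglobulin G, scored -3.05 to -0.82 in normal libraries (median -1.99) and -0.03 to 1.07 in tumour libraries (median 0.56). It rose by 2.66 ± 0.38, with no overlap. The inhibitory receptor Fcgr2b rose by 1.89 ± 0.31, a call lost only without normal library 1 (1.54). Of 12 Fc receptor and Fc receptor-like genes 2 rose and 1, Fcrls, fell.

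Cd72, an inhibitory lectin-like receptor best known from B cells, scored -2.37 to -1.15 in normal and 0.33 to 1.93 in tumour libraries, with medians of -1.76 and 1.44. All 8 tumour libraries lay above the normal ones, and the difference was 3.12 ± 0.36. Lilrb4, another inhibitory immunoglobulin-like receptor with a close paralogue, rose by 2.70 ± 0.35. Among 19 Cd300 and paired immunoglobulin-like receptors it was called higher together with Cd300lf, and 1 was called lower.

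Il2rg, the common gamma chain shared by the receptors of several interleukins, scored -2.66 to -1.26 in normal libraries (median -2.27) and -0.87 to 1.73 in tumour libraries (median 0.75). It rose by 3.11 ± 0.41 without overlap. Of 44 interleukin and other cytokine receptors, 3 were called higher and 7 lower, with a median difference of -0.14, so the rise of Il2rg was not shared by its list. Il18bp, a secreted decoy for the interleukin it is named after, rose by 2.75 ± 0.47.

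Siglecs are sialic acid-binding lectins, most of which inhibit myeloid cells. Of 7 measured, 4 were called higher (57.1%, against 4.66% of all genes) and 1 was called lower (14.3%, against 12%). The 4 were Siglecg (2.23 ± 0.63), Siglec1 (1.84 ± 0.52), Cd22 (1.70 ± 0.40) and Siglec5 (1.39 ± 0.36). Cd22 scored -1.85 to 0.04 in normal and 0.10 to 1.32 in tumour libraries and did not overlap, while the other 3 overlapped. None of the 4 calls was kept in each leave-one-out fit. Without normal library 10 the differences of Siglecg, Siglec1, Cd22 and Siglec5 were 1.65, 0.64, 1.70 and 1.44, without normal library 18 they were 1.96, 1.77, 1.11 and 1.44, without normal library 1 they were 3.18, 2.20, 1.05 and 1.63, and none of these was called. Tumour library 27 was needed for Siglecg (2.25 without it), Siglec1 (1.91) and Cd22 (1.23), normal library 26 for Siglecg (2.66) and Siglec5 (1.23), and tumour library 30 for Siglec1 (1.46). In fits to 1 strain alone, Siglecg had the opposite sign in Pep3 recipients (-0.95) and Siglec1 in WT recipients (-0.51). The deposited scores of Siglecg in Pep3 mice ran from -2.08 to -0.58 in normal and from -0.71 to 3.16 in tumour libraries. Those of Siglec1 in WT mice ran from -3.07 to -1.22 and from -1.92 to 0.53.

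Among intracellular sensors, Nlrc5, the transactivator of class I antigen-presentation genes, rose by 2.35 ± 0.38 in each leave-one-out fit. Nod1, a sensor of bacterial peptidoglycan, rose by 2.16 ± 0.40, a call lost without normal library 10 (1.05) or 1 (2.16). The remaining NOD-like receptors included 6 called lower of 29. Toll-like receptors gave 1 higher call of 12. Pattern-recognition receptors of the C-type lectin family gave 2 higher and 1 lower of 16, including the beta-glucan receptor Clec7a (1.78 ± 0.41), which was not called without normal library 18 (1.65), 26 (1.61) or 1 (0.68) or tumour library 27 (1.56). Scavenger receptors gave 3 higher and 1 lower of 15. Cd36, which takes up oxidised lipoproteins and fatty acids, rose by 1.94 ± 0.39 and was not called without normal library 1 (2.35).

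**Figure D2:**
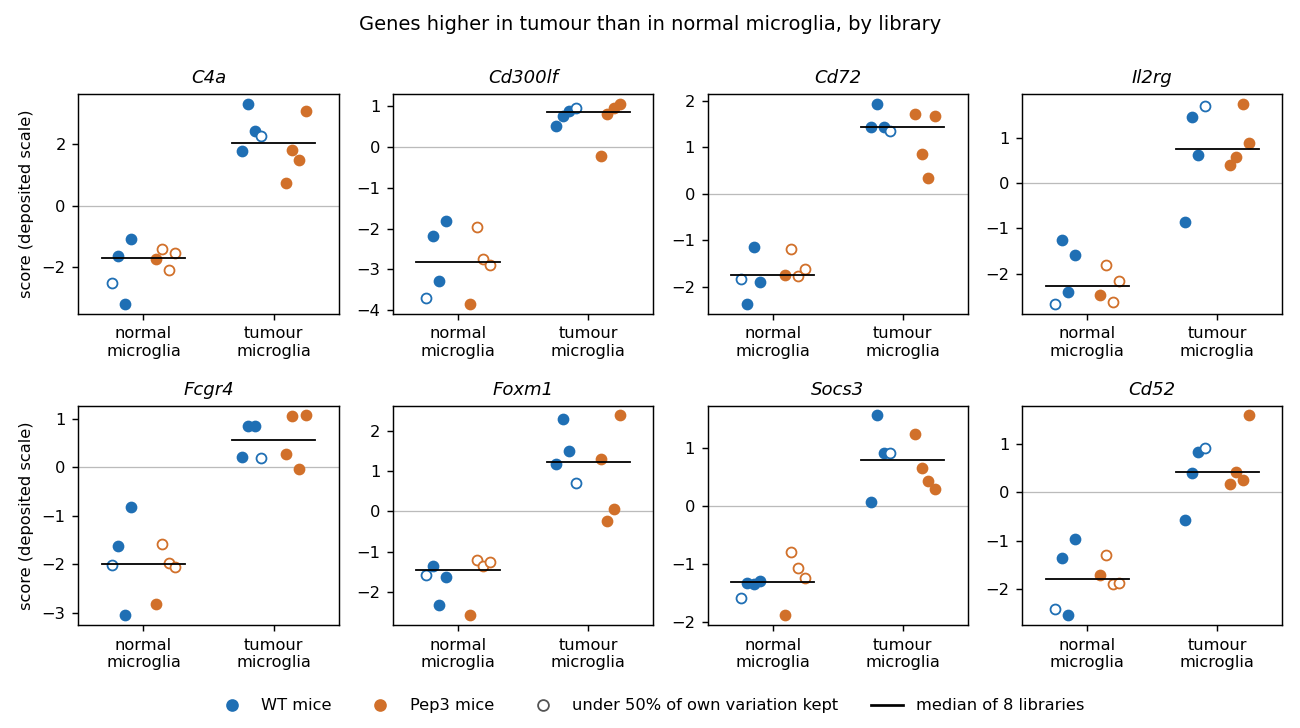
Deposited score of 8 genes called higher in each leave-one-out fit (y axis) in each of the 8 normal and 8 tumour microglia libraries, coloured by recipient strain; open circles are libraries that kept under 50% of their own variation and lines are medians. In each panel all tumour libraries lie above all normal libraries, for Cd72 from 0.33 upwards against -1.15 and below.

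Other higher genes of large size were of mixed function. Mnda, a member of the interferon-inducible p200 family with close paralogues, rose by 3.59 ± 0.48, and Cd74, the invariant chain of class II antigen presentation, rose by 3.45 ± 0.38. Ly6a, a small membrane-anchored protein known as Sca-1, rose by 3.21 ± 0.33, and the interferon regulatory factor Irf7 by 3.08 ± 0.45. Dhx58, a helicase of the RIG-I family, rose by 2.88 ± 0.36 and Rtp4, an interferon-induced chaperone of receptor transport, by 2.86 ± 0.32. Fxyd5, a regulator of the sodium pump, rose by 2.86 ± 0.44, Lgals3bp, a secreted galectin-3 binding protein, by 2.82 ± 0.37 and Rspo1, a secreted enhancer of Wnt signalling, by 2.81 ± 0.45. Rspo1 scored -3.28 to -0.34 in normal and 0.54 to 2.92 in tumour libraries. Cd52, a small membrane-anchored glycopeptide of leukocytes, rose by 2.37 ± 0.33. Zfp746, a zinc finger repressor, rose by 2.33 ± 0.38. The 20 largest higher genes outside interferon, class I and II and chemokine symbols, taken from those called in each leave-one-out fit, all had groups without overlap, which a choice by size favours. Of these 20, 18 were also called in the reduced fit without the 9 libraries and the terms, where Haao (2.50, adjusted p = 0.08) and Fxyd5 (2.34, adjusted p = 0.051) were the exceptions.

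Complement and disease-associated microglia genes rose in larger shares than all genes (4.66%). Of 22 measured complement genes, 7 were called higher and 2 lower, with a median difference of 0.62. C3, the central complement component, scored -3.74 to -1.90 in normal and -2.14 to 1.55 in tumour libraries. It rose by 2.59 ± 0.48 with overlapping groups, and was not called without normal library 1 (2.33). Cfb, factor B of the alternative pathway, rose by 2.38 ± 0.43 and likewise was not called without normal library 1 (2.04).

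Of 27 genes that microglia raise around amyloid plaques and in other disease, 10 were called higher and 1, the lipid receptor Trem2, lower, with a median of 0.86. The higher ones included Lgals3bp and Cd52, both kept in each leave-one-out fit, the phagocytic receptor kinase Axl (2.78 ± 0.48), the cathepsin inhibitor Cst7 (2.71 ± 0.40) and the integrin alpha chain Itgax (1.73 ± 0.44). Axl scored -2.90 to -1.38 in normal and -0.86 to 1.54 in tumour libraries, with no overlap. Itgax did not overlap either, while Cst7 did. Axl was not called without normal library 10 (1.92) or 1 (2.31), Cst7 without normal library 1 (1.81) and Itgax without normal library 10 (1.07), 18 (1.29) or 1 (1.65) or tumour library 27 (1.39). Of 22 checkpoint and costimulation genes, 3 rose and 2 fell. Cd274, which encodes PD-L1, scored -3.09 to -0.84 in normal and -0.44 to 0.65 in tumour libraries. It rose by 2.36 ± 0.37 and was not called without normal library 1 (1.96).

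Signalling lists are set against the shares of all genes, 4.66% called higher and 12% called lower. Of 22 Jak, Stat and Socs genes, 4 rose (18.2%) and 1 fell (4.55%), with a median of 0.18. Socs3, a feedback inhibitor of cytokine receptors, scored -1.89 to -0.80 in normal libraries (median -1.32) and 0.07 to 1.57 in tumour libraries (median 0.79). Its difference of 2.16 ± 0.35 was called in each leave-one-out fit. Stat2, a transcription factor of interferon signalling, rose by 1.74 ± 0.33 and was not called without normal library 10 (1.11).

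Of 39 genes of the NF-kappaB pathway, 3 rose (7.69%, against 4.66% of all genes) and 3 fell (7.69%, against 12%). Ikbke, a kinase that activates interferon regulatory factors, rose by 2.77 ± 0.49 and was called in each leave-one-out fit. Among 58 MAP kinases and dual-specificity phosphatases 2 rose (3.45%) and 4 fell (6.9%). Map3k8, a kinase downstream of Toll-like receptors, scored -2.83 to -0.38 in normal and -0.55 to 2.47 in tumour libraries and rose by 2.86 ± 0.47. Map4k2, a kinase of the germinal centre kinase family, scored 0.50 to 2.78 in normal and -2.81 to -0.25 in tumour libraries and fell by 2.89 on this scale, with a standard error of 0.62. It did not overlap. Map3k8 was not called without normal library 1 (1.78), and Map4k2 without normal library 18 (-1.91) or 1 (-1.91) or tumour library 27 (-1.96).

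Of 46 growth factors and secreted cytokines, 2 rose (4.35%) and 6 fell (13%), near the 4.66% and 12% of all genes. Tnf, the inflammatory cytokine, scored -3.82 to -0.26 in normal libraries (median -1.59) and -0.05 to 2.18 in tumour libraries (median 0.99). It rose by 2.88 ± 0.50 without overlap and was not called without normal library 1 (2.97). Hbegf, a ligand of the epidermal growth factor receptor, differed by -1.67 ± 0.47. That call was lost without normal library 18 (-1.55), 26 (-1.59), 2 (-1.64) or 1 (-1.43) or tumour library 27 (-1.37). Phosphodiesterases and other cyclic nucleotide genes gave 1 higher (2.94%) and 8 lower (23.5%) of 34. Pde7a, a cyclic AMP phosphodiesterase, rose by 2.20 ± 0.46 and was not called without normal library 18 (1.59) or 1 (2.14) or tumour library 27 (1.75). Pde1c, a calcium-dependent phosphodiesterase, is described with the lower genes.

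Of 27 AP-1 and ATF transcription factors, 5 rose (18.5%, against 4.66% of all genes) and 1 fell (3.7%, against 12%). Of the 5, 4 had a difference of at least 1 in both strains. Of the 820 genes called higher over the whole table, 381 met that double condition. Batf2, an interferon-induced factor of this family, scored -3.60 to -1.12 in normal and -0.95 to 1.41 in tumour libraries and rose by 2.23 ± 0.47, a call lost without normal library 10 (1.51) or 1 (2.51). Nuclear receptors gave 0 higher and 11 lower of 33 (33.3%, against 12% of all genes), or 8 lower with library medians subtracted (24.2%, against 7.6% of all genes). Their median fitted difference was -0.09 in WT and -1.39 in Pep3 recipients. Only 1 of the 11 differed by at least 1 in both strains, and none was called in each leave-one-out fit. Pgr, the progesterone receptor, whose symbol lies outside that list, differed by -1.99 ± 0.32 and was called in each leave-one-out fit.

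Transporter and channel lists ran in both directions, and 4.66% of all genes were called higher and 12% lower. Sugar and monocarboxylate transporters gave 1 higher and 6 lower of 32. The higher one was Slc2a6, a glucose transporter-like protein of lysosomes in macrophages, which scored -4.44 to -0.89 in normal libraries (median -1.43) and -1.002 to 2.66 in tumour libraries (median 1.08). Its difference was 2.88 ± 0.57, with overlapping groups, and it was not called without normal library 10 (1.94) or 1 (2.92). Zinc, iron, copper and manganese transporters gave 5 higher and 2 lower of 26, with a median of 0.35. Among them Slc11a2, the iron importer DMT1, rose by 1.39 ± 0.41, a call lost without normal library 10 (0.75), 18 (0.59) or 1 (0.96) or tumour library 27 (0.72). Only 1 of the 5 had a difference of at least 1 in both strains.

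Amino acid transporters gave 0 higher and 4 lower of 38, mitochondrial carriers 0 and 0 of 38, and ABC transporters 0 and 8 of 46. Abcb4, a phospholipid exporter, scored 0.24 to 2.54 in normal and -1.28 to 1.08 in tumour libraries and differed by -1.90 ± 0.44. It was not called without normal library 10 (-1.74), 18 (-1.06) or 1 (-1.10) or tumour library 27 (-1.15). Ion channels gave 3 higher and 36 lower of 166, or 9 and 23 with library medians subtracted. The channel list had a median fitted difference of 0.27 in WT and -1.34 in Pep3 recipients. Of the 36 lower channels 4 differed by at least 1 in both strains, and of the 3 higher ones 1 did. Clcn2, a chloride channel, differed by -2.13 ± 0.48 with nearly the same size in both strains (-2.12 in WT and -2.14 in Pep3 recipients), and was not called without normal library 10 (-1.45), 26 (-1.87) or 1 (-2.41).

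Of 82 respiratory chain and ATP synthase genes, 16 rose (19.5%, against 4.66% of all genes) and 0 fell (against 12%). Their median was 0.59 against -0.25 for all genes, and 3 of the 16 had a difference of at least 1 in both strains. Cox6a2, the muscle-type subunit VIa of cytochrome oxidase, scored -1.56 to 1.58 in normal and 1.05 to 3.70 in tumour libraries and rose by 2.48 ± 0.46, though not without normal library 1 (2.09). Atp5g1, a ring subunit of ATP synthase, rose by 1.73 ± 0.45, a call lost without normal library 10 (0.63), 18 (1.26) or 1 (2.11) or tumour library 27 (1.74). None of the 16 calls was kept in each leave-one-out fit.

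Glycolysis gave 4 higher of 22 (18.2%, against 4.66% of all genes) and 1 lower (4.55%, against 12%). Ldha, the lactate dehydrogenase A chain, rose by 1.65 ± 0.33 and Pgk1, phosphoglycerate kinase, by 1.57 ± 0.36, without overlap for Pgk1. The fitted difference of Ldha was 0.16 in WT and 3.14 in Pep3 recipients (adjusted p = 0.092 by limma for the difference between strains), and that of Pgk1 was 1.06 and 2.07 (adjusted p = 0.669). Neither strain difference was called. Ldha was not called without normal library 10 (1.36) or 1 (1.16), and Pgk1 without normal library 10 (1.20), 18 (1.02) or 1 (0.99) or tumour library 27 (1.08). The tricarboxylic acid cycle gave 2 higher (7.41%) and 0 lower of 27, the pentose phosphate pathway 0 of 9 and cholesterol synthesis and uptake 0 of 24 in either direction.

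Of 27 glutathione and antioxidant genes, 9 rose (33.3%, against 4.66% of all genes) and 0 fell (against 12%), with a median of 0.89. Gsr, glutathione reductase, scored -2.83 to -0.93 in normal libraries (median -1.79) and -0.39 to 0.26 in tumour libraries (median -0.04). It rose by 1.87 ± 0.37 without overlap. Txn1, thioredoxin, rose by 1.73 ± 0.30, also without overlap, and Gpx3, a secreted glutathione peroxidase, by 2.70 ± 0.66 with overlap. Hmox1, heme oxygenase 1, rose by 2.41 ± 0.46. Without normal library 1 none of these 4 was called (Gsr 1.13, Txn1 1.84, Gpx3 1.63, Hmox1 2.12). Hmox1 was not called without normal library 18 either (1.73), nor Gpx3 without normal library 10 (2.36) or 18 (1.51) or tumour library 27 (1.79). Heme and iron handling, which shares Hmox1, gave 6 higher and 2 lower of 22. Cp, the ferroxidase ceruloplasmin, rose by 1.73 ± 0.36 and was not called without normal library 1 (1.73). Cybb, the catalytic chain of the phagocyte NADPH oxidase, rose by 1.92 ± 0.45, a call lost without normal library 10 (1.90), 18 (1.95), 26 (1.92) or 1 (1.21) or tumour library 27 (1.67).

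Haao, the kynurenine pathway enzyme that makes the quinolinate precursor, scored -2.13 to -0.09 in normal libraries (median -1.37) and 0.62 to 2.33 in tumour libraries (median 1.33). It rose by 2.94 ± 0.48, with no overlap, and was called in each leave-one-out fit. Its fitted difference was 0.96 in WT and 4.92 in Pep3 recipients, and the deposited means differed by 2.16 and 3.08. Nampt, the rate-limiting enzyme of NAD salvage, rose by 1.57 ± 0.35, a call lost without normal library 10 (1.24), 18 (1.21) or 1 (1.46) or tumour library 27 (1.34). Their list of amino acid catabolism, NAD and kynurenine genes gave 6 higher of 28 (21.4%, against 4.66% of all genes) and 0 lower (against 12%).

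Lipid genes gave few calls. Acsl5, which activates fatty acids to their coenzyme A esters, scored -1.57 to -0.53 in normal and -0.07 to 1.43 in tumour libraries and rose by 1.79 ± 0.36. Mgll, which breaks down monoacylglycerols including the endocannabinoid 2-arachidonoylglycerol, scored 1.23 to 2.51 in normal libraries (median 1.87) and -0.91 to 0.77 in tumour libraries (median 0.09). It differed by -1.97 ± 0.42, and neither gene overlapped. Acsl5 was not called without normal library 10 (1.31), 18 (1.45) or 1 (1.57), and Mgll without normal library 10 (-1.54), 18 (-1.32) or 1 (-1.87) or tumour library 27 (-1.53). Fatty acid oxidation gave 2 higher of 21 (9.52%, against 4.66% of all genes) and 1 lower (4.76%, against 12%).

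Cell division genes had, among the lists with more than 10 measured genes, the largest share of higher calls after type I interferon response genes (26 of 38). Of 44 measured, 18 rose (40.9%, against 4.66% of all genes) and 0 fell (against 12%), with a median of 1.17. Of the 18, 14 had a difference of at least 1 in both strains. None of the 18 calls was kept in each leave-one-out fit. Foxm1, a transcription factor of the G2 phase whose symbol lies outside that list, scored -2.57 to -1.21 in normal libraries (median -1.46) and -0.24 to 2.37 in tumour libraries (median 1.23). Its difference of 2.83 ± 0.38 was called in each leave-one-out fit. Mcm5, a subunit of the replicative helicase, rose by 2.63 ± 0.54 and Cdkn1a, the cell cycle inhibitor p21, by 2.63 ± 0.55. Mcm5 was not called without normal library 10 (2.11), 26 (2.29) or 1 (2.18), and Cdkn1a without normal library 10 (1.30) or 18 (2.03).

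Nucleotide synthesis, which partly overlaps that list, gave 9 higher of 34 (26.5%, against 4.66% of all genes) and 1 lower (2.94%, against 12%). Tk1, thymidine kinase of dividing cells, scored -2.18 to 0.38 in normal and 0.87 to 3.09 in tumour libraries and rose by 3.01 ± 0.59. Rrm2, a ribonucleotide reductase subunit, rose by 1.85 ± 0.47 and Impdh2, the guanine nucleotide enzyme, by 1.57 ± 0.41. Tk1 was not called without normal library 18 (2.44) or 1 (1.72) or tumour library 27 (2.29), Rrm2 without normal library 18 (2.01), 26 (1.44) or 1 (1.22) or tumour library 27 (1.92), and Impdh2 without normal library 10 (1.41), 26 (1.57) or 1 (2.23).

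Of 72 heat shock and chaperone genes, 16 rose (22.2%, against 4.66% of all genes) and 3 fell (4.17%, against 12%). Dnaja2, a co-chaperone of Hsp70, rose by 2.10 ± 0.37 and Bag3, a co-chaperone of selective autophagy, by 1.94 ± 0.43. Dnaja2 was not called without normal library 1 (1.54), and Bag3 without normal library 18 (1.70), 26 (1.28) or 1 (1.14) or tumour library 27 (1.68). Lysosomal cathepsins and hydrolases gave 4 higher (13.8%) and 0 lower of 29. Ctsc, which activates serine proteases, scored -1.70 to -0.67 in normal and -0.11 to 0.74 in tumour libraries and rose by 1.51 ± 0.26, though not without normal library 1 (1.40). Atp6ap2, an accessory subunit of the proton pump from the list of vacuolar ATPase genes, rose by 1.28 ± 0.29, a call lost without normal library 26 (1.19) or 1 (0.94).

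Cytosolic ribosomal proteins gave 6 higher (7.59%) and 0 lower of 79 with a median of 0.40. Mitochondrial ribosomal proteins gave 8 (11.1%) and 0 of 72 with a median of 0.47, and 4.66% of all genes were called higher. With library medians subtracted these counts became 22 and 17. None of the calls was kept in each leave-one-out fit, and 0 and 2 of them had a difference of at least 1 in both strains.

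**Figure D3:**
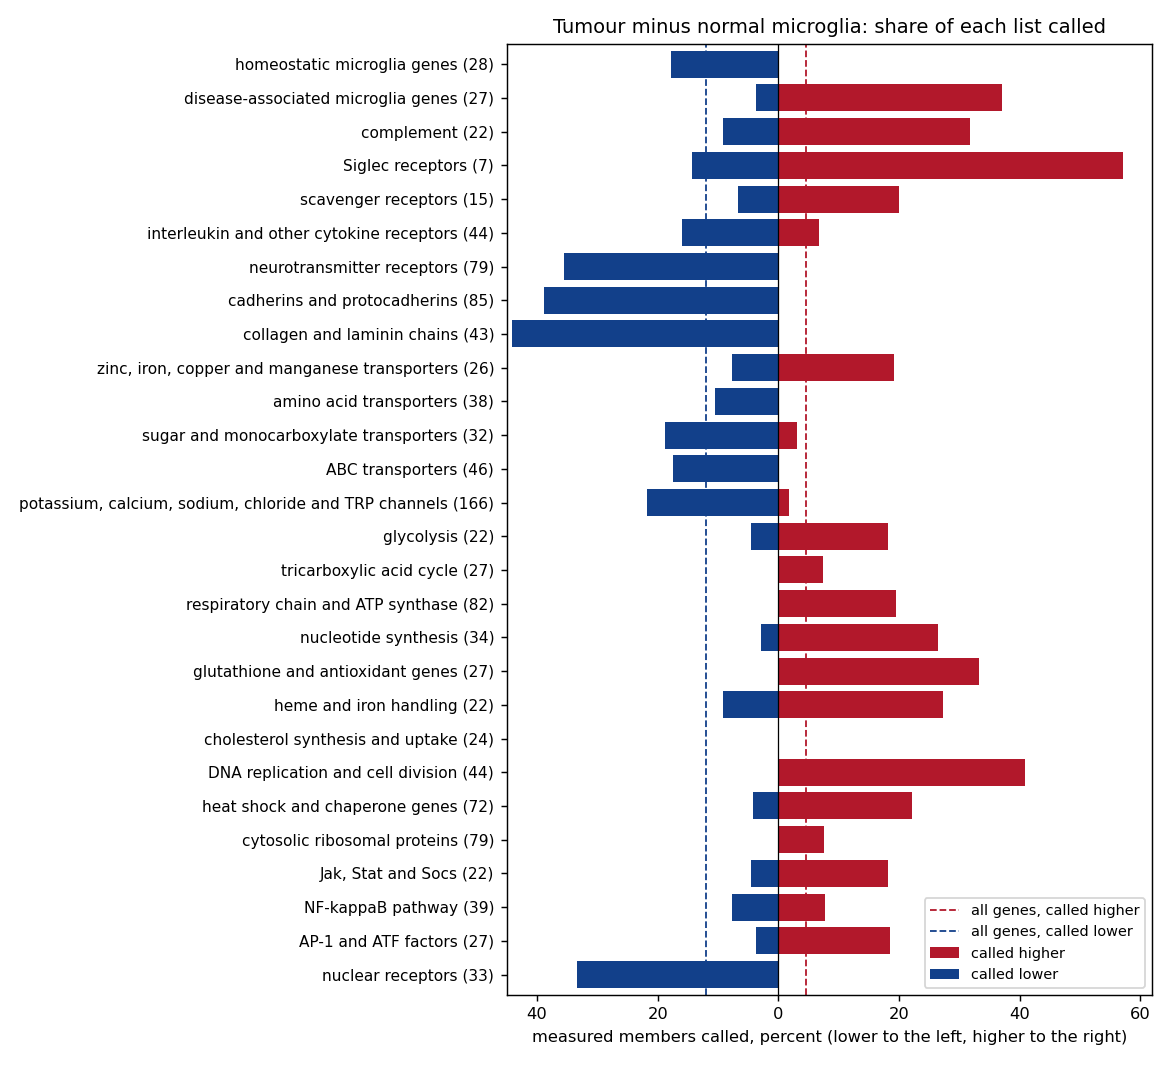
Percent of the measured members of 28 gene lists (y axis, number measured in parentheses) called higher (red, to the right) and lower (blue, to the left) in tumour minus normal microglia; dashed lines mark the shares of all genes, 4.66% higher and 12% lower. Respiratory chain, nucleotide synthesis, antioxidant and cell division lists extend to the right, and channels, neurotransmitter receptors, cadherins and collagens to the left. Cholesterol synthesis and uptake has no call in either direction.

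Few homeostatic microglia genes passed the test. Of 28 measured, 5 fell and 0 rose (17.9%, against 12% of all genes called lower), with a median difference of -0.69 against -0.25 for all genes. With library medians subtracted 2 were called lower (7.14%), near the 7.6% of all genes. The list's median fitted difference was -1.24 in WT and -0.08 in Pep3 recipients, whose normal microglia kept 1.36 library equivalents of 4. In the deposited scores of Pep3 mice, Tmem119 ran from 1.54 to 2.73 in normal and from 0.62 to 1.40 in tumour libraries. P2ry12 ran there from 1.44 to 2.45 and from 0.39 to 1.66. The mean score over the 28 genes ran from 1.27 to 2.06 in normal libraries and from 0.65 to 1.37 in tumour libraries. Fcrls, an Fc receptor-like gene restricted to microglia in the brain, scored 2.03 to 3.23 in normal libraries (median 2.96) and 0.04 to 2.13 in tumour libraries (median 0.90). It differed by -1.83 ± 0.38, by nearly the same amount in WT (-1.76) and Pep3 recipients (-1.90). The groups overlapped in that 1 tumour library, at 2.13, lay above the lowest normal libraries. P2ry12, the purinergic receptor of homeostatic microglia, differed by -0.53 ± 0.40 and was not called. Cx3cr1, the fractalkine receptor, differed by -0.81 ± 0.28 (adjusted p = 0.051) and was called without normal library 17 (-0.83). Both were picked as the best-known genes of the list after their values were seen. The sign of P2ry12 turned without normal library 10 (0.15). Fcrls was not called without normal library 10 (-1.32), 18 (-1.32) or 1 (-1.49) or tumour library 27 (-1.37).

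Of 27 genes of the transforming growth factor beta pathway, 3 fell and 0 rose (11.1%, near the 12% of all genes called lower), and 3 were called lower with library medians subtracted. Tgfb1, the ligand that maintains microglial identity, scored 0.61 to 2.41 in normal libraries (median 1.68) and -1.49 to 0.96 in tumour libraries (median -0.31). It differed by -1.79 ± 0.50, with -1.98 in WT and -1.60 in Pep3 recipients. Pmepa1, a target gene and feedback inhibitor of the pathway, scored 1.03 to 2.45 in normal libraries (median 1.79) and -0.55 to 0.40 in tumour libraries (median 0.23). It differed by -1.61 ± 0.30 without overlap, and by -1.92 in the reduced fit without the 9 libraries and the terms (adjusted p = 0.029). Tgfb2 differed by -1.69 ± 0.35. Pmepa1 and Tgfb2 were not called without normal library 1 (-1.74 and -1.60), and Tgfb1 was not called without normal library 18 (-1.26), 26 (-1.75) or 1 (-0.61) or tumour library 27 (-1.46).

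Sox4 and Arid3a were the transcription factors named here that fell by over 1 in both strains and were also called in the reduced fit. Sox4, a factor of progenitor cells that the pathway above is known to induce, scored 1.40 to 2.86 in normal libraries (median 2.29) and -0.53 to 1.67 in tumour libraries (median -0.22). It differed by -2.17 ± 0.37 in the full and -2.52 in the reduced fit (adjusted p = 0.0096), with -2.45 in WT and -1.89 in Pep3 recipients. It was not called without normal library 1 (-2.15). Arid3a, an AT-rich DNA-binding factor, scored 0.70 to 1.63 in normal libraries (median 0.93) and -1.94 to -0.21 in tumour libraries (median -0.68). It differed by -1.76 ± 0.34 in the full fit, was called in each leave-one-out fit, and differed by -2.18 in the reduced fit (adjusted p = 0.01). Both were chosen after their values were seen. The reduced fit lacks the terms for the missing directions, and with those terms kept it called no gene. In simulated data of all libraries, limma without the terms gave 9.74% of unchanged genes an unadjusted p below 0.05, against 5.13% with them. Those data were made by removing exactly the directions that the terms hold, so the deposited scores may behave otherwise.

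**Figure D4:**
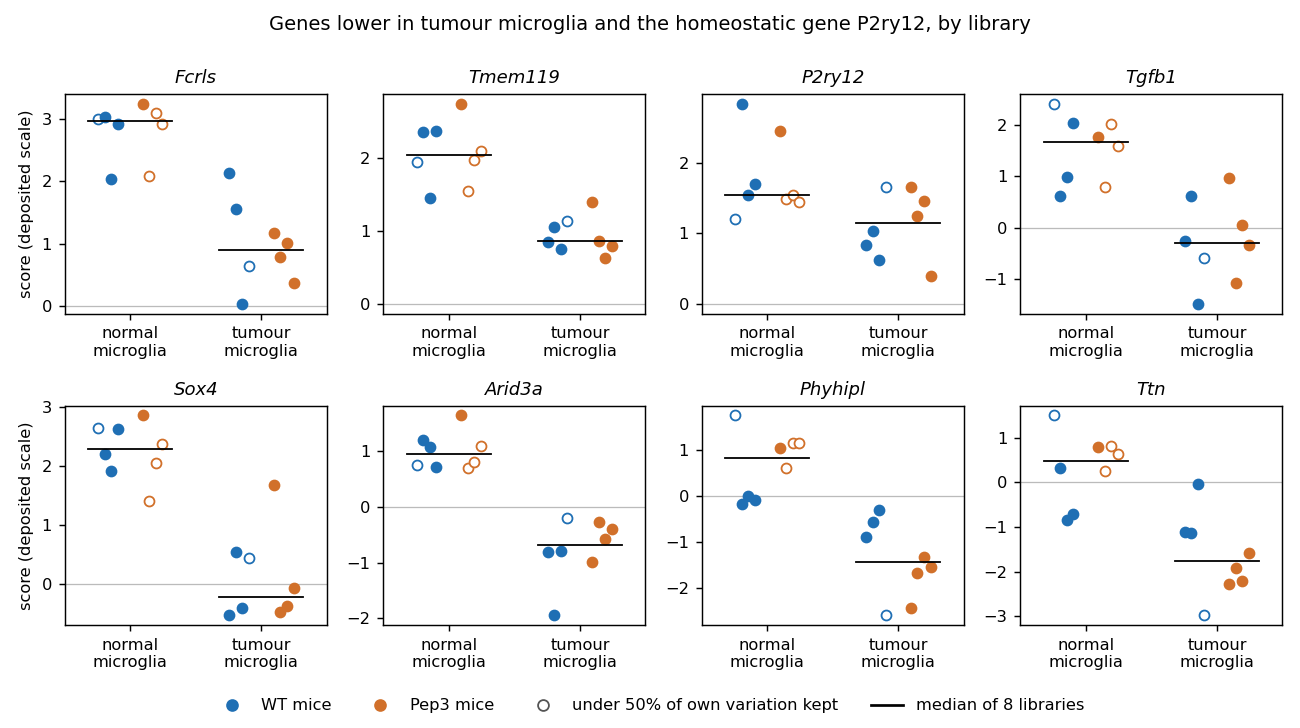
Deposited score (y axis) of 8 genes in each of the 8 normal and 8 tumour microglia libraries, coloured by recipient strain; open circles are libraries that kept under 50% of their own variation and lines are medians. Arid3a and Tmem119 do not overlap between groups, P2ry12 overlaps broadly, and for Ttn the highest and the lowest library of each group are WT libraries.

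The largest lower genes that were called in each leave-one-out fit were of other kinds. They included Phyhipl (-2.42 ± 0.32), the giant muscle protein gene Ttn (-2.37 ± 0.32), the homeobox gene Zfhx4 (-2.24 ± 0.35), the oligodendrocyte transcription factor Zfp488 (-2.20 ± 0.32), the very low density lipoprotein receptor Vldlr (-2.15 ± 0.32) and the GTPase-activating protein gene Ralgapa2 (-2.13 ± 0.30). Pde1c differed by -2.08 ± 0.30, the axon guidance receptor Plxna2 by -1.98 ± 0.30, butyrylcholinesterase Bche by -1.97 ± 0.33, the netrin-like gene Ntng1 by -1.96 ± 0.35 and the neural adhesion gene Ntm by -1.92 ± 0.32. Others were the pseudogenes Speer7-ps1 (-2.21) and Serpinb10-ps (-1.96), the vomeronasal receptors Vmn1r165 (-1.92) and Vmn2r53 (-1.90), Mal2 (-1.98), Prex2 (-1.95), Gdap1 (-1.95) and Pld5 (-1.92).

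Ttn scored -0.84 to 1.50 in normal and -2.98 to -0.04 in tumour libraries. For this gene the groups overlapped, and its fitted difference was 0.11 in WT and -4.85 in Pep3 recipients, against deposited differences of -1.38 and -2.63. Phyhipl scored -0.17 to 1.75 in normal and -2.58 to -0.30 in tumour libraries, without overlap, with fitted differences of -0.10 in WT and -4.73 in Pep3 recipients. Over the 20 largest lower genes of this kind the fitted differences had a median of -0.31 in WT and -3.57 in Pep3 recipients, and the deposited means differed by medians of -1.38 and -2.09. Of these 20 genes, 1, Vmn2r53, was called in the reduced fit (-1.77, adjusted p = 0.039).

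Lists of genes that mature microglia are not known for followed this pattern. Of 79 genes listed as neurotransmitter receptors 28 fell and 0 rose, and of 85 cadherins and protocadherins 33 and 0. Of 43 listed as collagen and laminin chains 19 fell and 0 rose. Each share of lower calls was above the 12% of all genes. With library medians subtracted these lists gave 19, 23 and 12 lower calls. Matched by symbol, the first list also held Htra2, Htra3, Adrbk1, Adrbk2 and Grinl1a, and the last held Col4a3bp. These are not such receptors or chains, and none was called. Semaphorins, plexins and neuropilins gave 9 lower of 26. Of 774 vomeronasal and olfactory receptor genes, a list added after the data were seen, 128 fell and 1 rose. The list medians in the fit were 0.19 in WT and -1.77 in Pep3 recipients for neurotransmitter receptors, 0.15 and -2.04 for cadherins, -0.02 and -1.86 for collagens and laminins, and 0.30 and -1.53 for vomeronasal and olfactory receptors. Only 2, 4, 3 and 14 members in that order differed by at least 1 in both strains. Grik5, a kainate receptor subunit, scored -1.35 to 3.59 in normal and -2.20 to 0.91 in tumour libraries and differed by -2.95 ± 0.59. Its fitted difference was 0.15 in WT and -6.06 in Pep3 recipients, and it was not called without normal library 26 (-2.04) or 1 (-1.64). Its deposited scores in WT mice ran from -1.35 to 3.58 in normal and from -1.86 to 0.91 in tumour libraries. In Pep3 mice they ran from 0.96 to 3.59 and from -2.20 to 0.66. None of the members of the neurotransmitter receptor, cadherin or collagen lists was called in each leave-one-out fit, and the levels of these genes are unknown.

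Strain was tested directly as the difference between the Pep3 and the WT contrast. Of 17586 genes, 72 had a larger value in Pep3 than in WT mice (0.409%) and 812 a smaller one (4.62%). Of the 820 genes called higher 22 also differed between strains, and of the 2116 called lower 381 did. Genes called higher had median fitted differences of 1.28 in WT and 2.07 in Pep3 mice, while genes called lower had -0.19 and -2.76. The deposited means differed by medians of 1.50 and 1.58 for the higher and -0.97 and -1.54 for the lower genes. Normal microglia of Pep3 mice kept 1.36 library equivalents of 4 and those of WT mice 2.69. Without the terms for the missing directions no strain difference was called by limma, with 385 genes at an unadjusted p below 0.05, and fits to WT or Pep3 mice alone, with 3 residual degrees of freedom, called no gene (1959 and 1895 at an unadjusted p below 0.05). The strain contrast also compares experiments 2 and 3 with experiments 1 and 4, and the direction of the graft, which cannot be told apart. In the double condition of a call and at least 1 unit in both strains, 381 genes were higher (2.17%) and 276 lower (1.57%). Of the 52 higher genes called in each leave-one-out fit 49 met it, and of the 47 lower genes 7.

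**Figure D5:**
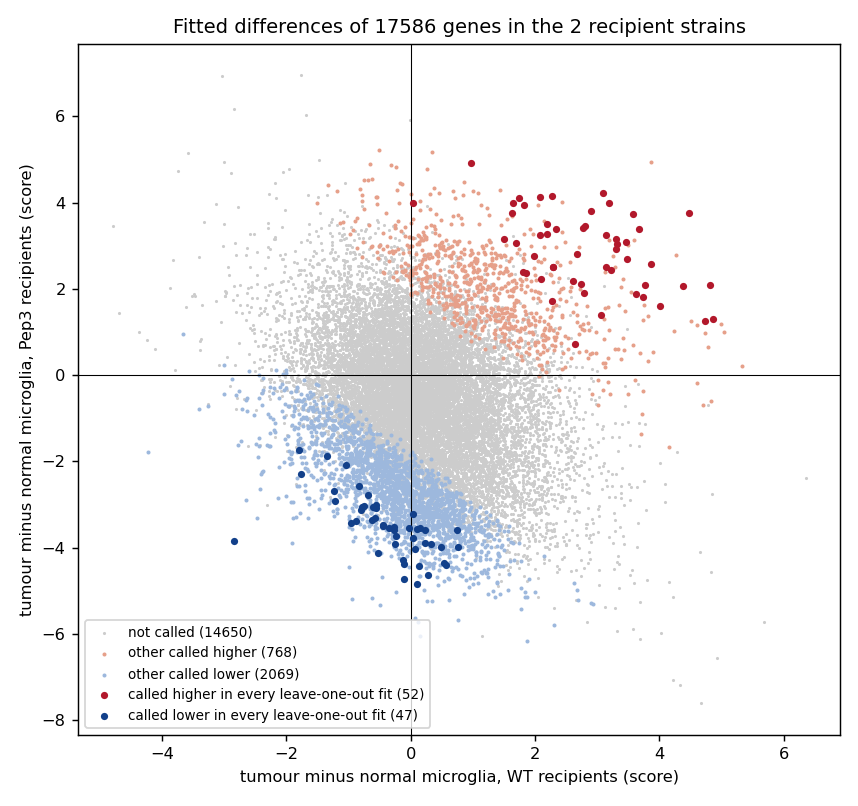
Fitted tumour minus normal difference in Pep3 recipients (y axis) against WT recipients (x axis) in score units, 1 point a gene, coloured by call over both strains. The 52 dark red genes lie mainly in the upper right quadrant, while the 47 dark blue genes run from -2.84 to 0.75 on the WT axis (median -0.27) and from -4.85 to -1.73 on the Pep3 axis (median -3.55).

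Markers of other cells are set against the shares of all genes, 4.66% called higher and 12% called lower. Because scores are centred for each gene, absence of a marker could not be read from them. Of 14 measured monocyte markers 3 rose (21.4%) and 2 fell (14.3%). Their mean score ran from -2.17 to -0.88 in normal and from -1.85 to -0.80 in tumour libraries. Plac8, a leukocyte gene of monocytes, scored -3.03 to -1.62 in normal and -1.60 to 2.21 in tumour libraries and rose by 2.58 ± 0.62, a call lost without normal library 10 (0.91), 18 (2.43) or 1 (3.10) or tumour library 27 (2.29). Ms4a4c, a monocyte membrane protein with close paralogues, rose by 2.34 ± 0.51, a call lost without normal library 10 (2.04), 18 (2.01) or 1 (1.31) or tumour library 27 (1.94). Border macrophage markers gave 0 calls of 11, with mean scores of -1.53 to -0.49 in normal and -1.49 to -0.51 in tumour libraries. T and NK cell markers gave 0 higher and 2 lower of 9, B cell markers 0 of 6, neutrophil markers 0 of 3 and dendritic cell markers 1 and 2 of 11. Neuron, astrocyte and oligodendrocyte markers gave 0 and 3 of 14, 1 and 3 of 13, and 1 and 2 of 13. Of 12 markers of glioma and neural progenitor cells, 2 rose (16.7%) and 6 fell (50%). That list had a median fitted difference of 0.33 in WT and -1.73 in Pep3 recipients. Among its lower genes was Ptprz1, a receptor phosphatase of glial progenitors (-1.99 ± 0.39). Its fitted difference was 0.21 in WT and -4.18 in Pep3 recipients, and it was not called without normal library 10 (-1.77), 18 (-1.43) or 1 (-1.53). The deposited scores of Ptprz1 in WT mice ran from -1.88 to 1.34 in normal and from -2.93 to -0.19 in tumour libraries. In Pep3 mice they ran from -0.07 to 1.04 and from -2.14 to -1.22. The part of carried-over monocytes, tumour cells or other cells in the differences was not tested, and a change in the makeup of the sorted cells cannot be told apart from a change within them.

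Set beside the tumour macrophages, which share the same normal microglia as control, the tumour microglia values differed in size and in order. Macrophages of WT recipients came from experiment 3 and those of Pep3 recipients from experiment 4. For tumour microglia these were experiments 4 and 3, so within a strain population and experiment cannot be told apart. C4a differed from normal microglia by 4.12 in tumour microglia, while the difference was 2.03 for differentiated and 1.60 for undifferentiated macrophages. Cst7 gave 2.71, 0.49 and -0.50, Cox6a2 2.48, -0.92 and -0.50, Rspo1 2.81, 0.83 and 1.06, and Siglec5 1.39, 0.25 and -0.76 in the same order. Cd300lf gave 3.66, 3.78 and 4.22, Oas2 3.66, 3.05 and 2.40, and Isg15 3.36, 2.89 and 3.71. Tmem119 gave -1.08, -3.45 and -3.95, and Fcrls -1.83, -4.57 and -5.11. No test between the tumour populations was made here, and these genes were chosen after their values were seen.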

How the data were processed

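RNA of sorted cells was converted to cDNA with the Clontech SMART-Seq v4 kit, per the labels' protocols, and, per the submitters' processing notes, the reads went through FastQC, STAR (2.5.0a) and RSEM (1.3.0) on build mm9. The deposited table holds 1 score for each of 17586 genes in 32 libraries. Its name calls the values normalised counts, but the authors' scores are signed, average 0 for each gene overall and within each recipient strain, and span 21 dimensions, so 11 sample directions had been removed, by steps that are not given in the sources used here. Of these, the 9 directions beyond the mean and strain have no label.

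Tests used limma 3.58.1 (R 4.3.3) and every gene and library, with a mean for each population and strain. Covariates stood for the 9 missing directions that those means do not already span, which left 15 residual degrees of freedom. Robust empirical Bayes moderation, Benjamini-Hochberg adjustment over all genes and two-sided p-values were used. The contrast was averaged over the strains. The planned fit to log2 values, with a filter on low values, was not possible for signed scores. On simulated data of 17586 genes with 200 changed, an unadjusted p below 0.05 was found for 5.13% of the unchanged genes, against 9.74% without the covariates, and changes of 1, 2, 3 and 4 units were called in 8, 72, 86 and 94% of cases. The simulation drew independent libraries, gave both strains the same change and removed exactly the directions that the model held. A share near 5% was therefore built in. It cannot show whether the p-values hold for the deposited scores, whose processing is unknown.

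The 96 gene lists, the 5 markers and the named genes were chosen with earlier results of these data known. Named genes are the markers, the 20 largest higher and 20 largest lower genes called in each leave-one-out fit (without predicted genes and interferon, class I and II or chemokine symbols) and up to 4 genes of a list, of which only some are described. Genes outside this rule are marked in the text. Lists are described by counts and medians. Some were made by symbol pattern and hold a few genes of another kind. Alternatives were other models, scalings, thresholds and left-out libraries.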

Additional observations from a re-analysis of the deposited data

Results flagged for a closer look

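In 214 pairs of a gene and a group of 8 libraries, 11 had a library far from the others, and chance alone flags about 1 in 20. In tumour microglia the lowest library stood apart for Cd300lf (library 6, -0.22), Ly6a (library 3, -0.87), Clec7a (library 11, -2.38), Pmepa1 (library 19, -0.55), Bag3 (library 30, -1.12) and Arid3a (library 11, -1.94). In normal microglia the lowest library stood apart for Mal2 (library 25, -0.83), Ntm (library 25, -1.86) and Slc2a6 (library 17, -4.44), and the highest for Siglecg (library 25, 2.05) and Mcm5 (library 9, 1.02).

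The tumour minus normal difference of 12 of the 107 genes named differed between strains by the test of that difference in limma. As the Pep3 minus the WT difference it was -4.63 for Phyhipl, -4.96 for Ttn, -4.26 for Zfhx4, -4.17 for Speer7-ps1, -4.55 for Vldlr, -3.66 for Pde1c, -3.48 for Plxna2, -4.10 for Mal2, -3.32 for Pld5, -4.96 for Ntm and -4.39 for Ptprz1, and 4.18 for Dnaja2. No strain difference was called without the terms for the missing directions, and the strain contrast cannot be told apart from the experiments.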

How the results depend on the processing

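The main counts were 820 higher and 2116 lower. They became 1235 and 2357 without terms for the missing directions, 1358 and 1336 with library medians subtracted, 214 and 259 in the 16 microglia libraries alone, 208 and 537 with library weights, and 314 and 760 at an adjusted p below 0.01. Both counts were 0 without the 9 libraries under 50%, without the 4 normal ones among them (added after seeing the data; 2141 genes at an unadjusted p below 0.05), and in WT or Pep3 recipients alone. Without the 9 libraries and the terms they were 109 and 24. Leaving out 1 library gave 89 to 886 higher and 82 to 2836 lower. The 884 strain differences became 0 without terms, 374 with library medians subtracted, 51 with weights, 0 without the 9 libraries, 1 without these and the terms, and 213 to 1179 with 1 library left out. The cause was not tested. Of the 107 named genes, 78 kept their side of the threshold with weights, 38 without the 9 libraries and the terms, and 2 without the 9 libraries.

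Signs turned in Pep3 recipients alone for Cd74 (-0.33), P2ry12 (0.13), Nod1 (-1.12), Siglecg (-0.95), Slc11a2 (-0.51), Pde7a (-0.41), Tnf (-0.16), Bag3 (-0.33), Cst7 (-0.69) and Cd274 (-0.12). In WT recipients alone they turned for Phyhipl (0.43), Ntm (0.12), Siglec1 (-0.51), Ldha (-0.76), Batf2 (-0.35), Mcm5 (-1.18), Ms4a4c (-0.49), Ptprz1 (0.19) and Grik5 (2.14). These signs are of fits with 3 residual degrees of freedom, in which no gene was called. The deposited means of these genes, within the strain named, kept the direction of the full fit. For Nod1 in Pep3 mice, deposited scores ran from -1.55 to -0.64 in normal and from -0.001 to 1.22 in tumour libraries. With 1 library left out, P2ry12 ran from -1.04 to 0.15, above 0 only without normal library 10. The labels name no pairs of libraries, and no paired analysis was made. The library numbers run through the populations and strains in the same repeated order. Whether each round is a batch is not stated, and no term for it was fitted. A filter on low values and pseudocounts were not run, since signed scores allow neither.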
